A study of Homo sapiens with 6 samples.

Results

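The 10 genes described here encode the cytoplasmic intermediate filament proteins that neural cells and their neighbours can use: *VIM*, *DES*, *GFAP* and *PRPH* of type III, and *NEFL*, *NEFM*, *NEFH*, *INA*, *SYNM* and *NES* of type IV. They were taken by gene symbol from transcript tables of 4 atypical teratoid rhabdoid tumor (AT/RT) cell lines, and all 10 were found among 36532 genes. Intermediate filaments are rope-like polymers built of rod-shaped proteins, and which subunit a cell makes changes as it matures. Neural progenitors carry vimentin and nestin, astrocytes add GFAP, and neurons replace them with α-internexin, peripherin or the neurofilament triplet of light, medium and heavy chains. Nestin and synemin do not form filaments well alone and join those of vimentin, desmin or GFAP, while desmin is the filament of muscle.

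AT/RT is an aggressive brain tumor of early childhood that is defined by loss of SMARCB1, a subunit of the SWI/SNF chromatin remodelling complex. Total RNA came from the established lines CHLA 02, CHLA 04 and CHLA 05 and from CHLA 06, in 6 libraries. CHLA 02 and CHLA 05 gave a library apiece, whereas CHLA 04 and CHLA 06 were sequenced as 2 technical replicates. All lines were grown in the same serum-free medium, DMEM:F12 with 20 ng/mL EGF, 20 ng/mL basic FGF and 2% B-27, and none carried an added gene or received a drug. The study placed CHLA 02, CHLA 04 and CHLA 05 in the neurogenic group 1 and CHLA 06 in group 2. Each line is 1 biological sample, so no test between lines could be made, and the spread between technical replicates covers the library and not the culture. Values are TPM, a level scaled for transcript length and library size, summed over the transcripts of a gene. Reads recovered from the TPM steps gave 10265899 to 20520229 reads per library on transcripts and the 95% Wilson intervals quoted below, which cover counting error only. SMARCB1 itself was at 13.5 to 26.2 TPM in the 6 libraries, whereas the study states that its expression was absent from all 4 lines. A summed RNA level does not show whether intact protein was made.

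The CHLA 02 library had a pattern that bears on every comparison with it. Of 196 genes with at least 10 TPM in CHLA 06 and under 1 TPM in CHLA 04 and CHLA 05, 195 reached 1 TPM in CHLA 02, at a median of 0.571 times their CHLA 06 level (quartiles 0.403 and 0.784). Of 36 genes restricted in the same way to CHLA 04, 35 reached 1 TPM in CHLA 02, at a median of 0.471 times the CHLA 04 level. Of 76 genes restricted to CHLA 05, 3 did so, and no gene with 10 TPM in CHLA 02 was under 1 TPM in all the other lines. Whether the CHLA 02 library holds RNA of the other lines was not tested. The results below therefore lead with CHLA 04, CHLA 05 and CHLA 06, and CHLA 02 is given beside them.

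Start regions are given first, since *VIM* TPM was split between starts and *INA* and *PRPH* differed in how far they varied between lines. The levels compared between lines below are not split by start. The 250 bases upstream of the RefSeq start are printed for *VIM*, the most abundant member, *INA*, with the widest range between lines, and *PRPH*, with the narrowest range among members with a level over 10 TPM, and a further 250 bases lie upstream of a second *VIM* start that carried most of its TPM. All were read on the plus strand of GRCh38, and capitals mark exact matches on either strand to the TATA box searched as TATAAA, the CCAAT box, the GC box searched as GGGCGG and the AP-1 site searched as TGACTCA. None of the matches overlap one another.
VIM, RefSeq start, chr10:17227991-17228240: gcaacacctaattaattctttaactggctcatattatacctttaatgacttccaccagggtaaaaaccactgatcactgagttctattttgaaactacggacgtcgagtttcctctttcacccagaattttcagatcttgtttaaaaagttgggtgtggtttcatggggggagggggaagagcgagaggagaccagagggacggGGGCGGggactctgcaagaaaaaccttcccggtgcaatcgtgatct
VIM, downstream start, chr10:17229028-17229277: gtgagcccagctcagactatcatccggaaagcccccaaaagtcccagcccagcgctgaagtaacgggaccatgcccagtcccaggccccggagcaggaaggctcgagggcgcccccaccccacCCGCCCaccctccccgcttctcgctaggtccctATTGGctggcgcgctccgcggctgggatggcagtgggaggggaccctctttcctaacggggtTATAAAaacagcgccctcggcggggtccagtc
INA, RefSeq start, chr10:103276888-103277137: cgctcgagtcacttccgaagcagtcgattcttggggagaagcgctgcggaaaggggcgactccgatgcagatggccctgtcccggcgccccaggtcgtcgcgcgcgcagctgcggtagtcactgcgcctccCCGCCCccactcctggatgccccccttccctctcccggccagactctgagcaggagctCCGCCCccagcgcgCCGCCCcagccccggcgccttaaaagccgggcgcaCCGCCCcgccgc
PRPH, RefSeq start, chr12:49294897-49295146: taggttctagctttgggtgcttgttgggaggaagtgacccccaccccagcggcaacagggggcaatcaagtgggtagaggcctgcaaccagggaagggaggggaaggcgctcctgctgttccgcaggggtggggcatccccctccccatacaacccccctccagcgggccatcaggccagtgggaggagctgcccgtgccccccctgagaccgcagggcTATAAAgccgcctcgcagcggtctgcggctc
The window at the downstream *VIM* start held a TATAAA from -32 to -27 relative to that start, a CCAAT box on the other strand and 1 GGGCGG on the other strand. The window at the RefSeq *VIM* start held 1 GGGCGG. The *PRPH* window held a TATAAA from -31 to -26, and the *INA* window held 4 copies of GGGCGG, all on the other strand. Over the 35116 promoter windows of the same length in the RefSeq table, 10.7% held TATAAA, 32.0% CCAAT, 42.6% GGGCGG and 4.20% TGACTCA on either strand. GC content was 46% at the RefSeq *VIM* start, 66.8% at the downstream *VIM* start, 72.8% at *INA* and 66.8% at *PRPH*, against a median of 58% over all windows. None of the 3 RefSeq windows overlapped an exon of GENCODE v44, and the downstream *VIM* window is intronic to the longer transcripts apart from 2 exonic bases. The main *PRPH* transcript of the tables starts further upstream, at 49293702. A match to these letters is a description and not a binding site. The promoter table held 5 of the 10 members, of which *SYNM* and *NES* are not printed.

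*VIM* (ENSG00000026025; chromosome 10 from 17228259 to 17237593) was the most abundant member in every library. It was at 4629 and 4990 TPM in CHLA 04, at 8430 TPM in CHLA 05, at 19464 and 14708 TPM in CHLA 06, and at 13742 TPM in CHLA 02. The CHLA 04 libraries were lowest and the CHLA 06 libraries highest, with CHLA 05 between them and no overlap. The line mean was 4809 ± 255 TPM (SD, n = 2 technical replicates) in CHLA 04 and 17086 ± 3363 TPM (SD, n = 2) in CHLA 06, a ratio of 3.55 (counting interval 3.53 to 3.58). The ratio of CHLA 06 to CHLA 05 was 2.03, and the technical replicates of CHLA 06 themselves differed by a ratio of 0.756. *VIM* ranked from 1 to 5 among all genes of a library and took 0.463% to 1.95% of library TPM and 93.4% to 99.0% of the summed TPM of the 10 members. Mesenchymal cells also carry vimentin. Of 6 mesenchymal markers, 5 reached 1 TPM in CHLA 04 or CHLA 06, with 3 over 2-fold higher and 1 lower in CHLA 06. Over all genes, 13.2% were higher and 18.5% lower in CHLA 06 than in CHLA 04. Against CHLA 05 the shares were 10.4% and 17.0%, and later marker counts are to be read beside them. The 6 mesenchymal markers summed to 13.5 and 24.0 TPM in CHLA 04 and 51.2 TPM in CHLA 05. Their sum was 1981 and 1122 TPM in CHLA 06 and 1259 TPM in CHLA 02. In CHLA 06 most of it was *COL3A1* (980 TPM, line mean) and *COL1A1* (530 TPM), genes of fibrillar collagens. These were at 1.57 and 1.72 TPM in CHLA 04. *COL1A2*, also of a fibrillar collagen, was at 0.0129 TPM in CHLA 06, 0.452 TPM in CHLA 04 and 7.12 TPM in CHLA 05. The marker lower in CHLA 06 than in CHLA 04 was *PDGFRB*, at 4.15 against 14.0 TPM. *LUM* was at 0 in CHLA 04 and *DCN* at 0 in CHLA 05. Their part in the *VIM* difference was not tested.

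**Figure D1:**
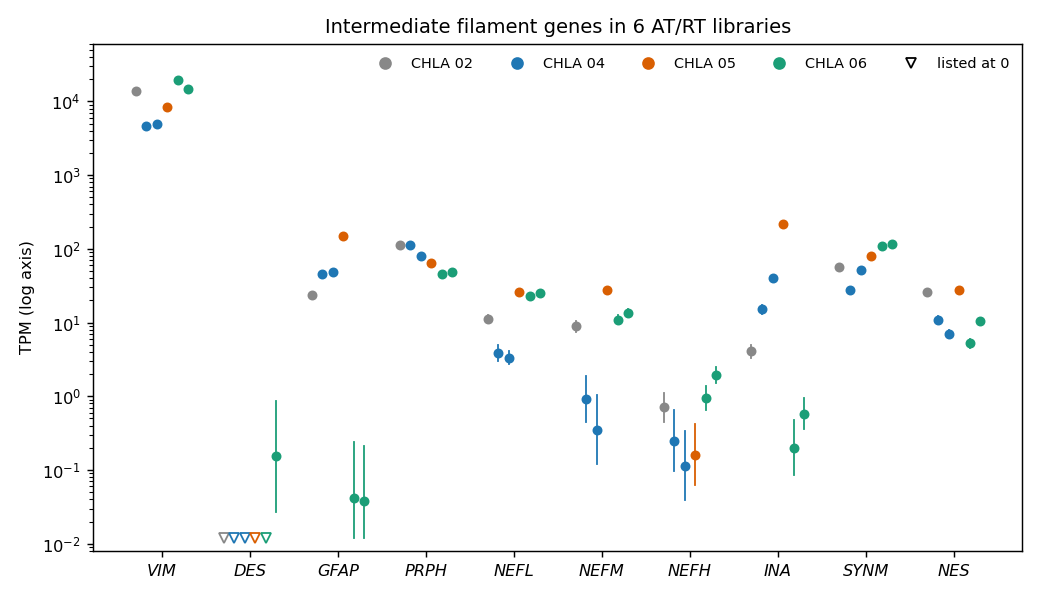
TPM of the 10 intermediate filament genes in each library on a log axis. Points are libraries coloured by cell line, vertical lines are 95% Wilson counting intervals, and open triangles at the foot stand for a level listed at 0. *VIM* lay between 4629 and 19464 TPM in all libraries, and *GFAP* and *INA* had their lowest points in CHLA 06.

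*VIM* TPM was spread over 10 transcripts. Transcripts typed protein coding in GENCODE v44 held 18.4% to 30.7% of it, those typed for nonsense-mediated decay 34.6% to 47.3%, one with no defined coding sequence 25.7% to 30.6%, and those with a retained intron 4.43% to 5.87%. Transcripts that start at the downstream site, at 17229278 or shortly after, held 54.1% to 63.1% of *VIM* TPM, and those that start upstream 9.44% to 17.3%. The rest lay on transcripts that start inside the gene. Protein-coding *VIM* TPM alone was 1285 and 1531 TPM in CHLA 04, 1549 TPM in CHLA 05, 5661 and 4522 TPM in CHLA 06, and 3025 TPM in CHLA 02. On that scale CHLA 06 stayed highest, while CHLA 05 was 1.10 times CHLA 04 in place of 1.75 times, and CHLA 06 was 3.29 times CHLA 05. How the mapping program shared reads between overlapping transcripts is not given in the sources used here, so these shares are its estimates.

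**Figure D2:**
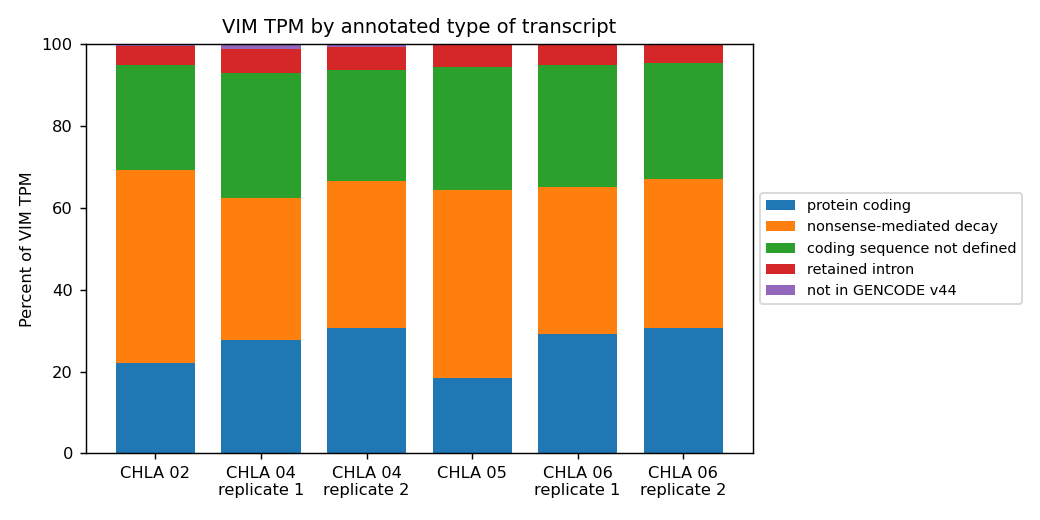
Share of *VIM* TPM by GENCODE v44 type of transcript in each of the 6 libraries, as stacked bars in percent. The protein-coding share lay between 18.4% and 30.7%, and the share typed for nonsense-mediated decay between 34.6% and 47.3%.

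*GFAP* (ENSG00000131095; chromosome 17 from 44905008 to 44916937), the filament of astrocytes, was at 45.3 and 47.9 TPM in CHLA 04, at 151 TPM in CHLA 05, at 0.0419 and 0.0379 TPM in CHLA 06, and at 23.9 TPM in CHLA 02. Each CHLA 06 library held 1 *GFAP* read, so the groups were far apart. The CHLA 05 level was 3.23 times the CHLA 04 level (interval 3.02 to 3.46), and the technical replicates of CHLA 04 differed by a ratio of 1.06. The CHLA 06 level was 0.000265 times the CHLA 05 level, with a counting interval of 3.20e-05 to 9.57e-04 that rests on 2 reads. Protein-coding transcripts held 88.3% to 100% of *GFAP* TPM, most of it on ENST00000253408, and the shorter coding form ENST00000435360 reached 20.7 TPM in CHLA 05. Of 7 other astrocyte markers, 5 reached 1 TPM in CHLA 05 or CHLA 06, with 4 over 2-fold lower and 1 higher in CHLA 06. Between CHLA 04 and CHLA 06, 4 reached 1 TPM, with 2 lower and 2 higher in CHLA 06. The lower ones were *AQP4* and *SOX9*, and the higher ones *GJA1* and *ALDOC*. *AQP4*, the water channel of astrocytes, was at 45.7 TPM in CHLA 04, 43.2 TPM in CHLA 05 and 0.125 TPM in CHLA 06 (line means). *ALDOC*, a glycolytic enzyme of astrocytes, was at 2.43 TPM in CHLA 04, 5.24 TPM in CHLA 05 and 61.5 TPM in CHLA 06. It was highest in the line where *GFAP* was lowest. *SOX9*, a transcription factor of glial progenitors, was at 25.5 TPM in CHLA 04, 228 TPM in CHLA 05 and 0.0477 TPM in CHLA 06 (line means). *GJA1*, the astrocyte gap junction protein, was at 2.48, 119 and 19.1 TPM in the same order. The summed level of the list was 411 TPM in CHLA 05 and between 60.7 and 105 TPM in the other libraries. *S100B* was at 0 in CHLA 02 and CHLA 04, and *ALDH1L1* at 0 in CHLA 04. Their part in the *GFAP* difference was not tested, and fewer cells with a transcript cannot be told apart from less of it per cell in bulk RNA.

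*INA* (ENSG00000148798; chromosome 10 from 103277163 to 103290351) encodes α-internexin, the filament of young neurons. It was at 15.1 and 40.1 TPM in CHLA 04, at 216 TPM in CHLA 05, at 0.201 and 0.580 TPM in CHLA 06, and at 4.08 TPM in CHLA 02. CHLA 05 was highest and CHLA 06 lowest, with no overlap between any of the 4 lines. The ratio of CHLA 05 to CHLA 04 was 7.84 (interval 7.33 to 8.38), although the technical replicates of CHLA 04 differed by a ratio of 2.66 (interval 2.29 to 3.11). CHLA 06 had 5 and 16 reads on *INA*, and its level was 0.00181 times that of CHLA 05 (interval 0.00112 to 0.00276). *INA* and *GFAP* had the widest ranges of the members between lines, 6.51 and 6.23 on the log2(TPM + 2) scale, against a median range of 0.89 over 11859 genes with at least 10 TPM in a line.

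The neurofilament triplet, which spaces and widens axons, had another order of lines. *NEFL* (ENSG00000277586; chromosome 8 from 24950955 to 24957110), the light chain on which the others assemble, was at 3.84 and 3.34 TPM in CHLA 04, at 26.3 TPM in CHLA 05, at 22.8 and 24.8 TPM in CHLA 06, and at 11.3 TPM in CHLA 02. *NEFM* (ENSG00000104722; chromosome 8 from 24913012 to 24919098), the medium chain, was at 0.916 and 0.353 TPM in CHLA 04, at 27.4 TPM in CHLA 05, at 11.0 and 13.6 TPM in CHLA 06, and at 8.88 TPM in CHLA 02. Both were lowest in CHLA 04, whereas *INA* was lowest in CHLA 06. The ratio of CHLA 06 to CHLA 04 was 6.62 (interval 5.60 to 7.88) for *NEFL* and 19.4 (interval 10.4 to 40.6) for *NEFM*, the latter against 7 and 3 reads in the CHLA 04 libraries. *NEFM* TPM was split among 6 transcripts, of which protein-coding ones held 29.4% to 68.8%. *NEFH* (ENSG00000100285; chromosome 22 from 29480230 to 29491390), the heavy chain of mature axons, was low throughout, at 0.250 and 0.115 TPM in CHLA 04, 0.162 TPM in CHLA 05, 0.956 and 1.95 TPM in CHLA 06, and 0.711 TPM in CHLA 02. The CHLA 06 libraries were highest, and their mean was 7.96 times that of CHLA 04 (interval 3.71 to 20.4), from 91 against 7 reads.

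As shares of the summed TPM of *INA* and the triplet, *INA* made up 75.1% and 91.3% in CHLA 04 and 80.1% in CHLA 05, but 0.576% and 1.42% in CHLA 06. In CHLA 06 *NEFL* made up 65.2% and 60.6%, and in CHLA 02 it made up 45.3% beside 16.3% of *INA*. The CHLA 06 libraries stood apart in the *INA* share, while the share of CHLA 05 fell between those of the CHLA 04 libraries. Of 8 neuronal marker genes, 5 reached 1 TPM in CHLA 04 or CHLA 06, *TUBB3* under 2 identifiers, and 3 were over 2-fold lower and none higher in CHLA 06. *MAP2*, a microtubule protein of dendrites, was at 685 TPM in CHLA 04, 915 TPM in CHLA 05 and 6.31 TPM in CHLA 06 (line means). *TUBB3*, the neuronal β-tubulin, was at 264, 205 and 383 TPM in the same order under its more abundant identifier. The list summed to 870 and 1090 TPM in CHLA 04, 1150 TPM in CHLA 05, 329 and 469 TPM in CHLA 06, and 575 TPM in CHLA 02. *SNAP25* and *RBFOX3* were at 0 in CHLA 06, and their part in the differences was not tested.

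**Figure D3:**
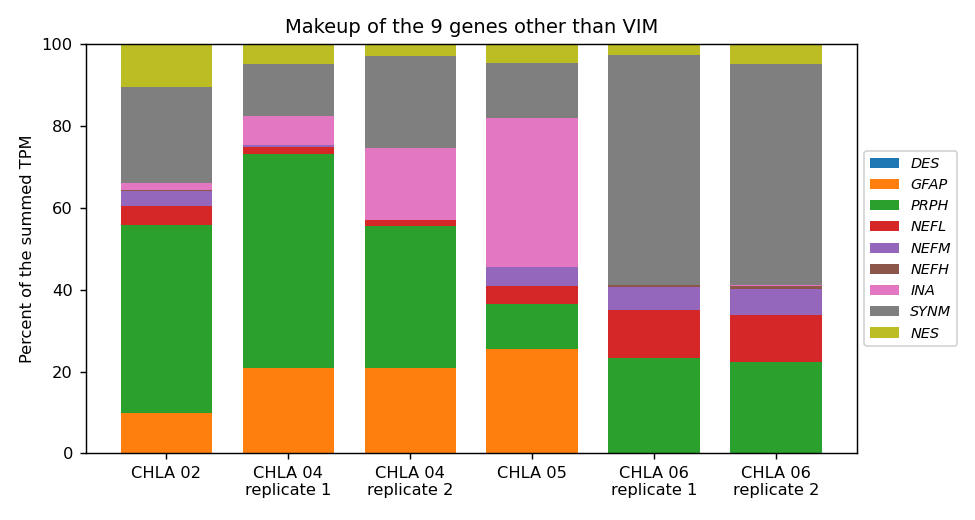
Makeup of the summed TPM of the 9 members other than *VIM*, in percent, for each library as stacked bars. *SYNM* made up 56.1% and 53.9% in the CHLA 06 libraries, *INA* 36.5% in CHLA 05, and *PRPH* 52.3% and 34.6% in the CHLA 04 libraries.

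*PRPH* (ENSG00000135406; chromosome 12 from 49293252 to 49298686) encodes peripherin, a filament of peripheral and some central neurons, and was the second most abundant member in CHLA 04 and CHLA 02. It was at 114 and 79.7 TPM in CHLA 04, at 65.1 TPM in CHLA 05, at 45.1 and 48.6 TPM in CHLA 06, and at 112 TPM in CHLA 02. The CHLA 06 libraries were lowest and the CHLA 04 libraries were above those of CHLA 05. The ratio of CHLA 06 to CHLA 04 was 0.483 (interval 0.457 to 0.511), while the CHLA 04 libraries differed by a ratio of 0.698. *PRPH* had a range between lines of 1.22 on the log2 scale, or 1.02 without CHLA 02. Its main coding transcript, ENST00000257860, held 76.5% to 85.6% of its TPM. Of 7 peripheral neuron markers, 2 reached 1 TPM in CHLA 04 or CHLA 06, with 1 higher and 1 lower in CHLA 06. *POU4F1*, a factor of sensory neurons, was at 67.0 TPM in CHLA 04, 8.39 TPM in CHLA 05, 0.0257 TPM in CHLA 06 and 108 TPM in CHLA 02, and *HAND2*, a factor of sympathetic neurons, was at 11.1, 15.4, 104 and 46.8 TPM in the same order. *TH*, the enzyme that starts catecholamine synthesis in sympathetic neurons, was at 0 in every library, and the list summed to between 26.3 TPM in CHLA 05 and 156 TPM in CHLA 02. Their part in the *PRPH* levels was not tested.

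*SYNM* (ENSG00000182253; chromosome 15 from 99098217 to 99135593) encodes synemin, which ties filaments to the dystrophin complex and other membrane sites. It was at 27.8 and 51.7 TPM in CHLA 04, at 79.3 TPM in CHLA 05, at 109 and 117 TPM in CHLA 06, and at 57.0 TPM in CHLA 02. CHLA 06 was highest and CHLA 04 lowest, without overlap. The ratio of CHLA 06 to CHLA 04 was 2.85 (interval 2.74 to 2.96), and the CHLA 04 libraries differed by a ratio of 1.86. At least 95.6% of *SYNM* TPM lay on ENST00000336292 in each library. *NES* (ENSG00000132688; chromosome 1 from 156668763 to 156677397), whose product nestin marks neural progenitors, was at 10.8 and 6.93 TPM in CHLA 04, at 27.6 TPM in CHLA 05, at 5.21 and 10.5 TPM in CHLA 06, and at 25.6 TPM in CHLA 02. CHLA 05 and CHLA 02 were higher, and the CHLA 04 and CHLA 06 libraries overlapped. The ratio of CHLA 05 to CHLA 04 was 3.11 (interval 2.80 to 3.47), against ratios of 0.642 and 2.02 between technical replicates. Of 7 other neural stem markers, 6 reached 1 TPM in CHLA 04 or CHLA 06, and all 6 were over 2-fold lower in CHLA 06. *FABP7*, a fatty acid binding protein of radial glia, was at 3169 TPM in CHLA 04, 1400 TPM in CHLA 05 and 0.995 TPM in CHLA 06 (line means), and *SLC1A3*, a glial glutamate transporter, at 437, 1047 and 0.954 TPM. The list summed to 3010 and 4814 TPM in CHLA 04, 2734 TPM in CHLA 05, 9.76 and 12.4 TPM in CHLA 06, and 1169 TPM in CHLA 02, with *HES5* at 0 in CHLA 06. Unlike these markers, *NES* did not separate CHLA 04 from CHLA 06.

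*DES* (ENSG00000175084; chromosome 2 from 219418377 to 219426739), the muscle filament, was listed at 0 in 5 libraries and at 0.154 TPM, from 1 read, in CHLA 06 replicate 2. A count of 0 on its coding transcript allows up to 0.156 to 0.316 TPM, the level of 3 reads, depending on the library. *MYOD1*, *MYOG* and *MYF5*, the factors that define skeletal muscle, were at or near 0 as well, with line means of at most 0.0851 TPM. Of 9 muscle markers, 4 reached 1 TPM in CHLA 04 or CHLA 06, with 2 higher in CHLA 06 and none lower. *TNNT1*, a skeletal muscle troponin gene of the list, was not near 0. It was at 12.5 TPM in CHLA 04, 13.8 TPM in CHLA 05, 115 TPM in CHLA 06 and 132 TPM in CHLA 02. *ACTA2*, smooth muscle actin, was at 856 TPM in CHLA 04, 495 TPM in CHLA 05, 984 TPM in CHLA 06 and 541 TPM in CHLA 02, and *TAGLN*, an actin-binding protein of smooth muscle, at 4.11, 18.1, 267 and 36.0 TPM. The list summed to 534 to 1526 TPM across libraries.

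In the order of levels within a line, *VIM* was first everywhere and *SYNM* and *PRPH* were among the first 5. CHLA 04 ran *VIM*, *PRPH*, *GFAP*, *SYNM*, *INA*, *NES*, *NEFL*, *NEFM*, *NEFH* and *DES*, in which the neighbours *GFAP* and *SYNM*, *SYNM* and *INA*, *NEFM* and *NEFH*, and *NEFH* and *DES* overlapped in their libraries or in their counting intervals. CHLA 05 ran *VIM*, *INA*, *GFAP*, *SYNM*, *PRPH*, *NES*, *NEFM*, *NEFL*, *NEFH* and *DES*, in which *NES*, *NEFM* and *NEFL* overlapped in their counting intervals and *NEFH* overlapped the upper limit of *DES*. CHLA 06 ran *VIM*, *SYNM*, *PRPH*, *NEFL*, *NEFM*, *NES*, *NEFH*, *INA*, *DES* and *GFAP*, in which *NEFM* and *NES*, and each pair of neighbours from *NEFH* to *GFAP*, overlapped in the same sense. CHLA 02 ran *VIM*, *PRPH*, *SYNM*, *NES*, *GFAP*, *NEFL*, *NEFM*, *INA*, *NEFH* and *DES*, with *NES* and *GFAP*, and *NEFL* and *NEFM*, overlapping. The lower bound of *NEFH* there, 0.450 TPM, was above the limit given for the coding transcript of *DES*. It was below the level of 3 reads on a shorter *DES* transcript with a retained intron, 0.590 TPM.

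Differences between lines were then counted over the members as a difference of line means of log2(TPM + 2) over 1, that is 2-fold on that scale, among genes with at least 1 TPM in either line. For CHLA 05 against CHLA 04, 8 members passed that minimum. *GFAP*, *NEFL*, *NEFM*, *INA* and *NES* were higher in CHLA 05 by 1.65, 2.34, 3.48, 2.88 and 1.45 on the log2 scale, 5 members of 8 against 10.3% of 15123 genes, and 0 were lower against 7.98%. For CHLA 06 against CHLA 04, 9 members passed. *VIM*, *NEFL*, *NEFM* and *SYNM* were higher by 1.83, 2.20, 2.44 and 1.46, 4 members against 13.2% of 15288 genes, and *GFAP*, *PRPH* and *INA* were lower, with differences of -4.58, -1.02 and -3.63, 3 members against 18.5%. For CHLA 06 against CHLA 05, 9 members passed. *VIM* was higher by 1.02, 1 member against 10.4% of 15339 genes, and *GFAP*, *NEFM*, *INA* and *NES* were lower, with differences of -6.23, -1.04, -6.51 and -1.59, 4 members against 17.0%. The 3 comparisons share their libraries and are not independent. The median difference over all genes tested was -0.02, -0.22 and -0.19 in the 3 comparisons, and that of the members that passed was 1.55, 0.66 and -0.46. Between technical replicates, 1 of 7 members that passed, *INA*, differed by over 1 in CHLA 04, against 4.46% of genes, and 0 of 7 did in CHLA 06, against 1.10%.

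**Figure D4:**
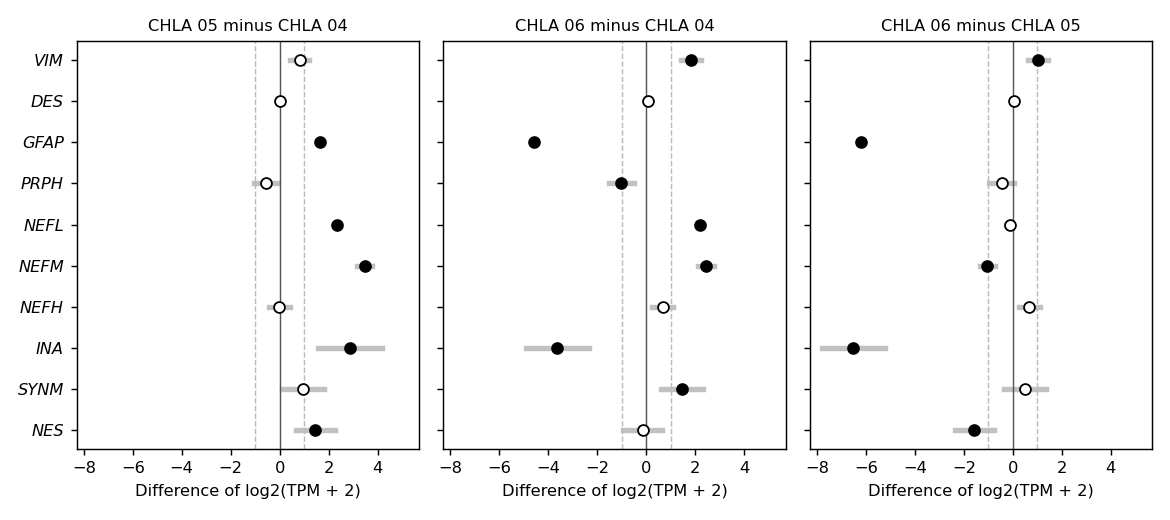
Difference of line means of log2(TPM + 2) for each member in 3 comparisons of lines. Filled points are members counted as over 1 in size, grey bars reach the largest gap between technical replicates to each side, and dashed lines mark 1 and -1. *GFAP* and *INA* were lowest in CHLA 06 by 6.23 and 6.51 against CHLA 05, and the *PRPH*, *NEFM* and *VIM* points closest to a dashed line have bars that cross it.

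Several of these counts rest on values near the limit. The *PRPH* difference between CHLA 06 and CHLA 04 was -0.74 without CHLA 04 replicate 1 and -0.97 without CHLA 06 replicate 1. The *VIM* and *NEFM* differences between CHLA 06 and CHLA 05 were 0.80 and -0.91 without CHLA 06 replicate 1. With quantile normalization the *VIM* difference was 0.99 between CHLA 06 and CHLA 04 in place of 1.83, and 0.75 between CHLA 06 and CHLA 05. Quantile normalization replaces each value by the mean level at its rank, and *VIM* was at or near the top rank in every library. The *VIM* differences on that scale therefore reflect its rank and not the size of its own level. *NES* was counted at 1.45 between CHLA 05 and CHLA 04 and at -1.59 between CHLA 06 and CHLA 05. *SYNM* was counted at 1.46 between CHLA 06 and CHLA 04. The largest technical gaps of *NES* and *SYNM* were 0.80 and 0.85, enough to bring each of these differences inside the limit. *SYNM* was not counted between CHLA 05 and CHLA 04, at 0.96. The *NEFH* difference between CHLA 06 and CHLA 04 was 0.66, below the limit on this scale, on which low levels are compressed.

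With CHLA 02 included, 8 members passed against CHLA 04, and 4 were higher in CHLA 02, *VIM*, *NEFL*, *NEFM* and *NES*, against 9.26% of 15224 genes, and 1, *INA*, was lower against 8.89%. The *VIM* difference fell from 1.51 to 0.24 with quantile normalization, where *VIM* is set by its rank near the top. That of *NEFM* fell from 2.05 to 0.89 with the most abundant transcript alone. Against CHLA 05, 0 of 8 members were higher than in CHLA 05 against 9.53% of 15485 genes, and 4, *GFAP*, *NEFL*, *NEFM* and *INA*, were lower against 11.2%. Against CHLA 06, 4 of 9 members were higher, *GFAP*, *PRPH*, *INA* and *NES*, against 7.98% of 14827 genes, and 0 were lower against 2.27%. Technical gaps could bring several of these differences inside the limit. They were *NES* at 1.35 from CHLA 04 and 1.49 from CHLA 06 (gap 0.80), and *INA* at -2.28 and 1.35 from the same lines (gap 1.30). The others were *PRPH* at 1.22 from CHLA 06 (gap 0.51) and *NEFL* at -1.09 from CHLA 05 (gap 0.13). The CHLA 02 level lay between those of CHLA 04 and CHLA 06 for 7 of the 9 members that passed, against 62.2% of 16035 genes. The CHLA 05 level lay between them for 3 of 9, against 46.5%. The exceptions in CHLA 02 were *NES* and *PRPH*, which were above both lines, *NES* at 25.6 TPM against line means of 8.87 and 7.86 TPM and *PRPH* at 112 TPM against 96.9 and 46.8 TPM. The *PRPH* exception rests on averaging, since 112 TPM lies between the CHLA 04 libraries of 79.7 and 114 TPM, and with the maximum of technical replicates the difference from CHLA 04 was -0.03.

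**Figure D5:**
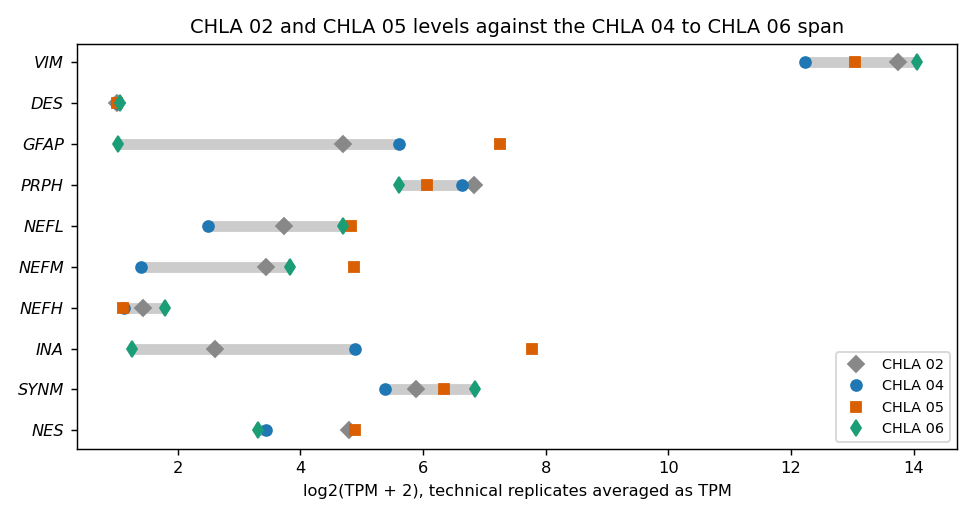
Line levels of each member as log2(TPM + 2), with the span from CHLA 04 to CHLA 06 as a grey bar. Diamonds in grey are CHLA 02, squares CHLA 05, circles CHLA 04 and thin diamonds in green CHLA 06. The CHLA 02 point fell inside the bar for 7 of the 9 members that passed the minimum and outside it for *NES* and *PRPH*.

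The genes that act on these filaments were described by lists, with no test. Over all genes, 13.2% were higher and 18.5% lower in CHLA 06 than in CHLA 04, and 10.4% and 17.0% than in CHLA 05. A count near these shares is not a result about its list. Of 13 other intermediate filament genes, 10 reached 1 TPM in CHLA 06 or CHLA 05, with 4 higher and 2 lower in CHLA 06. *KRT19*, an epithelial keratin, was at 99.4 TPM in CHLA 06 and 45.7 TPM in CHLA 02, at 0.110 TPM in CHLA 05 and at 0 in CHLA 04. The lamins *LMNA* and *LMNB1*, filaments of the nucleus, were at 496, 626 and 501 TPM and at 578, 403 and 168 TPM in CHLA 04, CHLA 05 and CHLA 06 (line means). The technical replicates of CHLA 04 had *LMNA* at 287 and 705 TPM. Epithelial markers overlap this list through *KRT8* and *KRT18*, the keratin pair of simple epithelia, at 80.5 and 26.4 TPM in CHLA 06, and at most 0.150 TPM in CHLA 04 and CHLA 05. Of these 6 markers, 4 reached 1 TPM in CHLA 04 or CHLA 06, with 3 higher and 0 lower in CHLA 06. Between CHLA 05 and CHLA 06, 5 reached 1 TPM, with 3 higher and 2 lower in CHLA 06. The lower ones were *CDH1*, E-cadherin, at 12.4 TPM in CHLA 05 and 0.0502 TPM in CHLA 06, and *CLDN4*, a tight junction protein, at 6.27 and 0.435 TPM. The 6 markers summed to 1.02 and 1.71 TPM in CHLA 04, 19.1 TPM in CHLA 05, 109 and 111 TPM in CHLA 06, and 82.9 TPM in CHLA 02, with *EPCAM* at 0 in CHLA 04 and *CDH1* at 0 in CHLA 02.

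Of 4 chaperones, small heat shock proteins and their partners, 3 were higher in CHLA 06 than in CHLA 04, against 13.2% of all genes. In the other direction 0 were lower, against 18.5%. *CRYAB*, αB-crystallin, which binds vimentin, GFAP and desmin, was at 137 TPM in CHLA 06, 19.7 TPM in CHLA 05, 53.0 TPM in CHLA 02 and 0 in CHLA 04. The line mean of *HSPB1* was 911 ± 170 TPM (SD, n = 2 technical replicates) in CHLA 04, and that of CHLA 06 was 2039 ± 1187 TPM (SD, n = 2), so the libraries of CHLA 06 were far apart. *DNAJB6* was at 61.9 to 87.7 TPM in all lines.

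Of 5 membrane linkers, 0 were higher and 3 lower in CHLA 06 than in either CHLA 04 or CHLA 05. *DMD*, dystrophin, which synemin binds, was at 363 TPM in CHLA 04, 297 TPM in CHLA 05, 0.00426 TPM in CHLA 06 and 141 TPM in CHLA 02, while *VCL*, vinculin of focal adhesions, was at 179, 219, 345 and 278 TPM in the same order. *SYNM* itself was highest in CHLA 06, the line in which *DMD* was near 0. Of 7 cytolinkers, which join filaments to actin and microtubules, 5 passed between CHLA 04 and CHLA 06, with 1 higher and 0 lower in CHLA 06. *DST* was at 206 TPM in CHLA 04 and 857 TPM in CHLA 06, and *MACF1* at 1425 and 974 TPM.

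Of 6 motors that carry filament cargo, 0 were higher and 2 lower in CHLA 06 than in CHLA 04. *KIF5C*, a neuronal kinesin that carries neurofilaments, was at 46.7, 39.0 and 1.55 TPM in CHLA 04, CHLA 05 and CHLA 06, *KIF5B* at 314, 201 and 171 TPM, and *DYNC1H1*, the dynein heavy chain, at 304, 266 and 198 TPM. Of 8 genes of kinases that phosphorylate filaments, counting the activator *CDK5R1*, 0 were higher and 3 lower in CHLA 06 than in CHLA 04. *CDK5R1* was among the lower ones. The line means of *CDK1* were 151 to 171 TPM in these 3 lines. Its technical replicates were far apart, at 85.2 and 218 TPM in CHLA 04 and at 112 and 197 TPM in CHLA 06. *PLK1* was at 115, 90.7 and 56.5 TPM, with technical replicates at 82.9 and 147 TPM in CHLA 04 and at 41.6 and 71.3 TPM in CHLA 06. *CDK5R1*, the activator of neuronal CDK5, was at 13.4, 12.6 and 0.856 TPM. Of 5 turnover genes, 1 was higher and 1 lower. *TRIM2*, a ubiquitin ligase of neurofilament light chain, was at 517, 114 and 56.6 TPM, *CAPN2* at 143, 543 and 367 TPM, and *CAPN1* at 218, 198 and 274 TPM.

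Of 10 transcription factors in a mixed list of neural and glial factors, the mesenchymal factors *ZEB1* and *TWIST1* and the repressor of neuronal genes *REST*, 9 reached 1 TPM in CHLA 04 or CHLA 06, with 0 higher and 5 lower in CHLA 06. The lower ones were *SOX11*, *POU3F2*, *NFIB*, *ZEB1* and *TWIST1*, the last at 7.25 TPM in CHLA 04 and 0.225 TPM in CHLA 06. *POU3F2*, a neural POU factor, was at 81.9 TPM in CHLA 04, 102 TPM in CHLA 05, 0.0371 TPM in CHLA 06 and 48.9 TPM in CHLA 02. *NFIB* was at 536, 135, 223 and 350 TPM, and *STAT3*, an activator of *GFAP* in astrocytes, at 128, 282, 163 and 156 TPM in the same order. Levels of these factors are given as they stand, and a link to any member was not tested.

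For the 8 members with at least 10 TPM in a line, the 3 genes with the nearest pattern were found among 11859 genes by Euclidean distance of centred log2(TPM + 2) over the 6 libraries. The nearest were *B2M*, *KLF10* and *SERP2* for *VIM* (distances 0.18 to 0.24), *FN1*, *SOX21* and *CKB* for *GFAP* (0.85 to 0.91), *CADM1*, *SOX9* and *MFSD6* for *INA* (1.09 to 1.28), and *FBXO36*, *ZNF37BP* and *PPFIA3* for *PRPH* (0.07 to 0.28). They were *PRRG4*, *TMBIM1* and *ARSD* for *NEFL* (0.30 to 0.45), *LINC00116*, *TMEM144* and *DIXDC1* for *NEFM* (0.38 to 0.48), *KPNA3*, *RAB23* and *PCGF5* for *SYNM* (0.17 to 0.24), and *RP11-186B7.4*, *CGREF1* and *RP11-201K10.3* for *NES* (0.79 to 0.83). *INA* and its neighbour *SOX9* had levels of 27.6 and 25.5 TPM in CHLA 04, 216 and 228 TPM in CHLA 05 and 0.390 and 0.0477 TPM in CHLA 06 (line means). Without CHLA 02, between 0 and 2 of the 3 nearest genes stayed the same per member, so these neighbours depend on that library. No shared function follows from a near pattern over 4 lines.

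In 6 members, 9 other genes overlapped the span, all on the opposite strand. *VIM-AS1* was at 2.98 to 9.51 TPM. *CCDC103* and *FAM187A*, which overlap *GFAP*, were at 3.59 to 5.85 TPM and 0.616 to 2.47 TPM and stayed present in CHLA 06, where *GFAP* was near 0. *RP11-161H23.9* overlapping *PRPH* was at 0.465 to 1.63 TPM and *RP11-6O2.4* overlapping *SYNM* at 0.548 to 1.63 TPM. *RP11-124N14.3* and *AC000035.3*, overlapping *VIM* and *NEFH*, reached 0.217 and 0.436 TPM in 1 library each, and *AC053503.6* and *RP11-654A16.3*, overlapping *DES* and *SYNM*, were at 0 in all. The strand setting of the mapping is not given in the sources used here, so reads of antisense partners may not have been told apart.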

How the data were processed

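Total RNA of 4 AT/RT cell lines was made into stranded total RNA libraries and read as 125 bp pairs by the authors, who used CASAVA 1.8.2, FastQC and Trimmomatic per the submitters' processing notes. The authors mapped the reads to GRCh38 (Ensembl release 82) in the CLCbio Genomics Workbench, leaving its RNA-Seq settings at their defaults, and deposited TPM values per transcript, without log transformation or pooling of technical replicates. The program versions are not given in the sources used here. TPM was summed by gene identifier, and technical replicates were averaged as TPM. Values of TPM times transcript length fell on whole multiples of a step, within 0.05 of a read, for at least 99.6% of values above 0, which gave the reads and the 95% Wilson intervals. Intervals of ratios are exact binomial intervals (95%) of the split of reads and also cover counting error only. The recovery and the counting of differences were tested on simulated data, where 100% of 200 planted 4-fold changes were counted. The changes were planted only in genes with many reads and carried counting noise alone. That result does not cover members with few reads or the spread between technical replicates. A difference of log2(TPM + 2) over 1 was counted among genes of at least 1 TPM in either line. No test was made between lines. Transcript types came from GENCODE release 44 and promoter windows from RefSeq (GRCh38.p14), with the downstream *VIM* window from the GRCh38 sequence. Named genes are the members, genes overlapping them, the 2 highest and the most variable gene of each list, and the 3 nearest patterns; markers at 0 and the marker lists' other genes are named beside their list. The members and lists were chosen with earlier results of these data known. The repeat element files were not used. The level of 1 peripheral neuron marker is not reported here. Python 3.11.15, pandas 2.3.3 and SciPy 1.17.1 were used. Alternatives were the most abundant transcript, quantile normalization, the maximum of technical replicates, other pseudocounts, no filter, and leaving out each technical replicate, and, added after seeing the data, protein-coding transcripts only and leaving out CHLA 02.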

Additional observations from a re-analysis of the deposited data

How the results depend on the processing

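Of 144 recounts of members over 1 in size under the alternatives, 133 were within 1.5 times the reported count. The number of members higher in CHLA 06 than in CHLA 05 was 0 for the most abundant transcript and with quantile normalization, and 2 with a pseudocount of 0.1 or 1, where *NEFH* joined *VIM*. It was between 0 and 1 when a technical replicate was left out. The number of members lower in CHLA 02 than in CHLA 06 was 2 with quantile normalization and with the maximum of technical replicates, 1 with a pseudocount of 0.1 or 1, and between 0 and 2 when a technical replicate was left out. Quantile normalization also brought the members past 2-fold between the technical replicates of CHLA 06 to 1. Of 30 member differences over 1, between 25 and 30 kept their direction and size limit under each alternative, 25 with quantile normalization. That setting gives *VIM* a level by its rank near the top of each library. It lowered the *VIM* difference between CHLA 06 and CHLA 04 to 0.99. Of 600 recomputed differences of single members, 0 counted ones changed sign, 530 moved by less than the spread between technical replicates and 70 by more. Of 320 recomputed levels, 39 moved by more than their spread. Leaving out a technical replicate or taking the maximum of replicates could not move a level past that spread. Leaving out a replicate also left every difference and count without its line unchanged. The tallies of levels, differences and counts therefore overstate how stable the results are. No paired analysis was possible because the results come from no test and the shared replicate numbers mark technical replicates of different lines. Low reads limit *GFAP* and *INA* in CHLA 06, *NEFM* in CHLA 04, *NEFH* and *DES*. The spread between cultures of a line is unknown.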

Other observations

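Of 7 oligodendrocyte lineage markers, 4 reached 1 TPM in CHLA 05 or CHLA 06. In CHLA 06, 3 were over 2-fold lower and 1 higher, against 17.0% and 10.4% of all genes. Between CHLA 04 and CHLA 06, 4 reached 1 TPM, with 1 lower and 1 higher in CHLA 06, against 18.5% and 13.2%. *PDGFRA*, the receptor of oligodendrocyte progenitors, was at 14.4 TPM in CHLA 04, 24.9 TPM in CHLA 05, 2.61 TPM in CHLA 06 and 4.30 TPM in CHLA 02. *MBP*, the gene of myelin basic protein, was at 0 in CHLA 04, 0.267 TPM in CHLA 05, 23.1 TPM in CHLA 06 and 31.9 TPM in CHLA 02. The list summed to 71.2 TPM in CHLA 05 and to between 15.2 and 36.8 TPM in the other libraries, and *OLIG1* and *OLIG2*, which define the lineage, were at 0 in CHLA 06.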
